A study of Mus musculus with 27 samples.

Results

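The 34 genes described here build, power or switch on motile cilia, and they were followed on 27 arrays of mouse esophagus that each compared a sample with a common reference RNA. They were chosen by name, without use of any measured value: a probe counted when its gene name, or an older name matched through the RefSeq accession, was on the list. All 34 genes were found among the 27057 named genes of the array, on 60 probes, with 1 probe for 20 genes and more than 1, up to 5, for the other 14. Each of 9 groups held 3 arrays, which the labels call biological replicates. Wild-type C57BL/6J whole esophagus was taken at E11.5, E15.5, P0 (day of birth) and P7. Whole esophagus of Nrf2-/-, Keap1-/- and Nrf2-/-Keap1-/- mice on the C57BL/6J background was taken at P7. Esophageal epithelium without the rest of the wall was taken from adult wild-type and Nrf2-/- mice at 8 weeks of age. In the mutants the named allele is absent from the whole animal. On every array the esophageal RNA carried the red dye Cy5, and Universal Mouse Reference RNA, pooled from 11 mouse cell lines, carried the green dye Cy3. All levels below are log2 ratios of Cy5 over Cy3, given in the order of replicates 1, 2 and 3.

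A motile cilium beats because dynein motors, fixed in outer and inner arms on microtubule doublets, slide the doublets past each other, while radial spokes and a central pair of microtubules regulate the stroke. Cells that carry many cilia first amplify their centrioles into basal bodies and then switch on the axonemal genes, under the forkhead factor Foxj1 and factors of the RFX family. The embryonic esophagus is known to carry ciliated cells for a limited time before its lining becomes stratified and squamous.

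The median Cy5 spot intensity of the arrays ran from 81.8 to 226, and between 58.9% and 69.3% of Cy5 spots were well above background. The number of arrays limits the precision of every value. Where no probe of a gene was well above background, its ratio gives only a bound on the level. Nfe2l2, the gene of Nrf2, lay between -3.37 and -3.14 on the 6 arrays of Nrf2-/- and Nrf2-/-Keap1-/- esophagus at P7 and between -0.52 and -0.01 in the wild type at P7. Keap1 lay between -0.26 and 0.64 on the Keap1-/- arrays and between 0.42 and 1.00 in the wild type at P7, so the array did not separate these groups. On the Nrf2-/-Keap1-/- arrays Keap1 lay between -0.50 and -0.19, below the wild type at P7. The arrays came from whole tissue, and a smaller number of ciliated cells cannot be told apart from less of each RNA per cell.

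The array labelled E11.5 replicate 3 and the array labelled E15.5 replicate 1 went against their labels. Krt4, a keratin of squamous esophageal epithelium, measured -0.03, 0.06 and 5.17 at E11.5 by label and -0.21, 5.28 and 5.09 at E15.5 by label. Hbb-bh1, an embryonic globin, measured 4.99, 3.31 and 2.10 at E11.5 and 5.08, 0.47 and 0.37 at E15.5. In both genes each of these arrays lay nearer to the other age than to its own, except that Hbb-bh1 on the array labelled E11.5 replicate 3 lay between the ages. The 8 genes listed for esophageal epithelium had a summed Cy5 intensity of 23565, 20291 and 568411 at E11.5 and of 25217, 559959 and 519532 at E15.5. The labels were kept, and the tests that involve an embryonic group are given with both arrays and without them. Since the arrays were singled out by their expression, what is found without them describes the remaining arrays and is no independent test.

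Most of the cilium genes were high on 3 of the 6 embryonic arrays. For 29 of the 34 genes (85.3%) the highest embryonic levels were on E11.5 replicate 3 and E15.5 replicates 2 and 3, against 21.8% of 19115 genes compared in the same way. The exceptions were Rfx2, Rfx3, Tekt2, Dnah1 and Dnaic2. The median ratio of the 34 genes was 0.07, 0.09 and 1.60 at E11.5 and 0.04, 2.05 and 1.64 at E15.5. It was 0.66, 0.93 and 0.85 at P0 and at most 0.05 on each P7 array. Between 30 and 32 genes were well above background on the P0 arrays and between 15 and 19 on the P7 arrays.

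**Figure D1:**
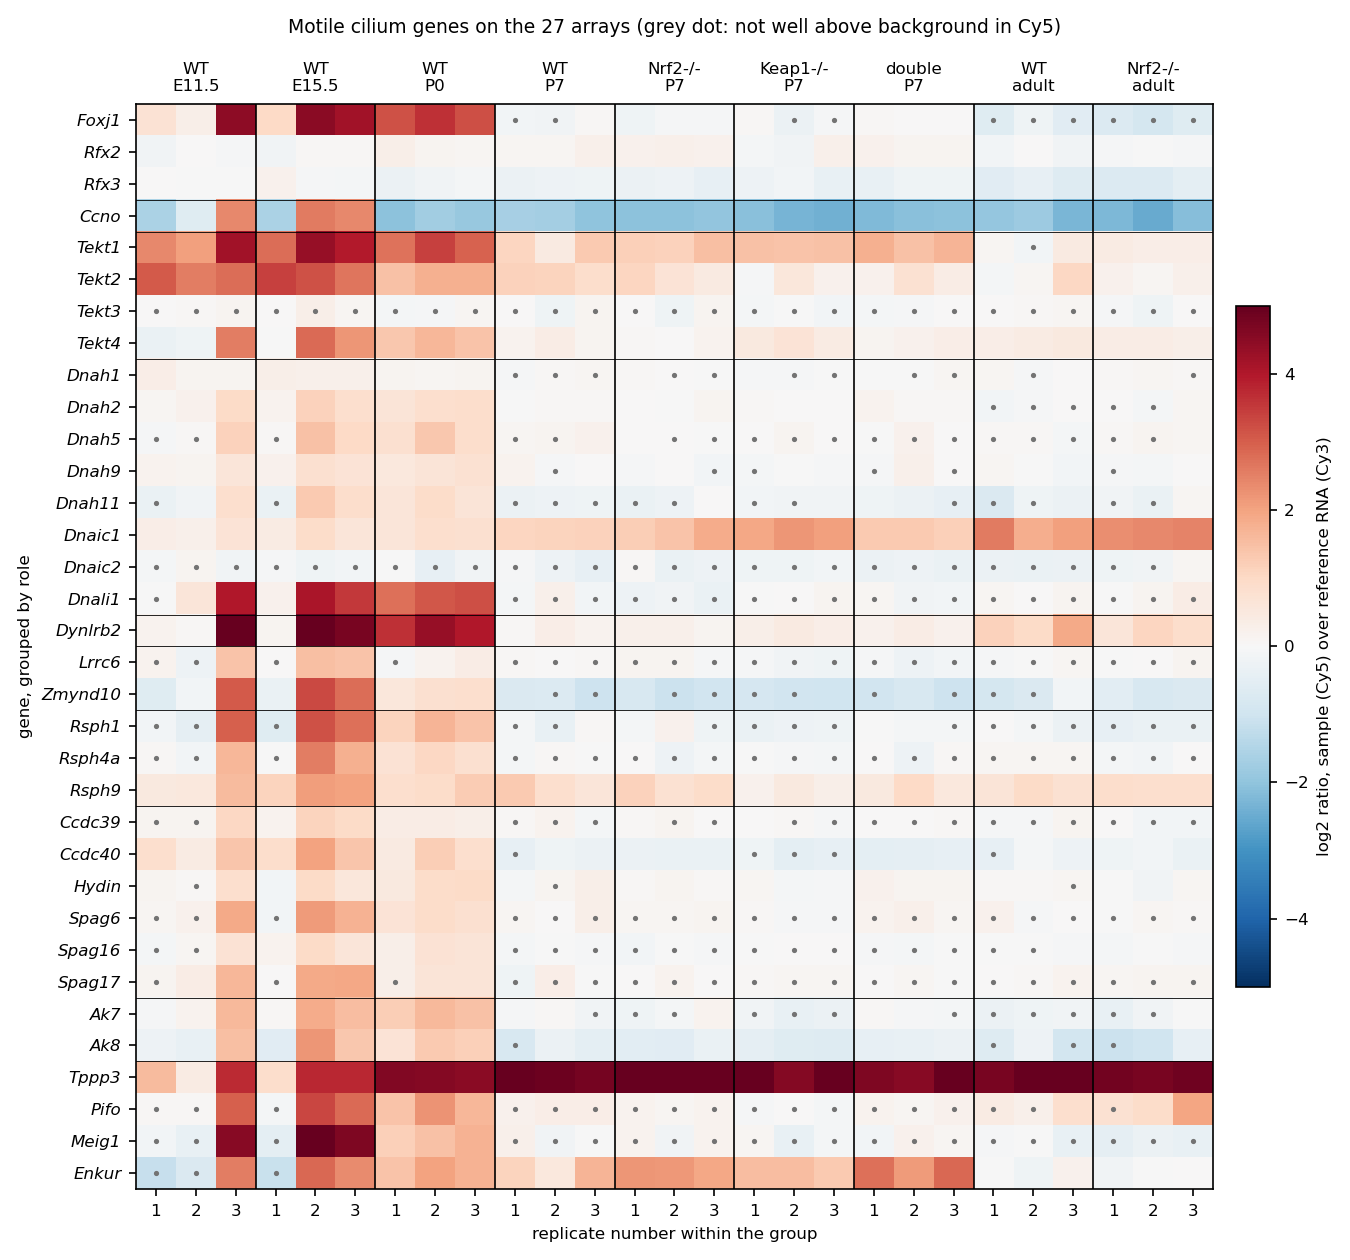
Log2 ratio of Cy5 over Cy3 for the 34 cilium genes (rows, grouped by role) on the 27 arrays (columns, by group and replicate number; double stands for Nrf2-/-Keap1-/-). Grey dots mark arrays on which no probe of the gene was well above background in Cy5. Most genes are red on E11.5 replicate 3, E15.5 replicates 2 and 3 and the 3 P0 arrays, and near 0 from P7 on.

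Among the transcription factors, Foxj1, which commands the motile cilium genes, followed this pattern, and the RFX factors did not. Foxj1 measured 0.74, 0.29 and 4.49 at E11.5 and 0.99, 4.50 and 4.19 at E15.5. At P0 it measured 3.17, 3.65 and 3.21, and at P7 -0.14, -0.17 and 0.06. The P0 arrays lay far above all P7 arrays, of which 1 was well above background. Rfx2, an activator of ciliary genes, measured -0.16, 0.02 and -0.04 at E11.5, -0.18, 0.06 and 0.07 at E15.5, 0.31, 0.12 and 0.09 at P0 and 0.09, 0.11 and 0.27 at P7. Rfx3, another activator of ciliary genes, measured 0.01, -0.03 and -0.02, then 0.21, -0.06 and -0.10, then -0.29, -0.16 and -0.11, then -0.29, -0.25 and -0.21 at the same ages. Both RFX genes stayed close to the reference, but they were dim. Their mean Cy5 intensities over the 12 wild-type time-course arrays were 95.7 (Rfx2) and 79.4 (Rfx3). The groups of both genes overlapped between E11.5 and E15.5 and between P0 and P7. From E15.5 to P0 the mean of Rfx2 was slightly higher and that of Rfx3 slightly lower, and neither was called in the tests below. The 2 probes of Rfx2 differed by -0.08 and 0.46 in this step, and the 4 probes of Rfx3 by -0.32 to -0.13. From P0 to P7 the probes of Rfx3 differed by -0.47 to 0.38.

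Ccno, which is needed to amplify centrioles in multiciliated cells, was high on 3 embryonic arrays and on no later array. It measured -1.60, -0.60 and 2.42 at E11.5 and -1.58, 2.59 and 2.40 at E15.5. At P0 it measured -2.04, -1.74 and -1.91, and at P7 -1.66, -1.68 and -2.03. The P0 and P7 groups overlapped, and both lay far below the 3 high embryonic arrays.

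Promoters were read because these genes move together and RFX factors bind a known DNA motif, the X-box. The RefSeq promoter table (GRCm38.p6, 250 bases before to 50 bases after the start) held 35 promoters of 29 of the 34 genes, among 32851 promoters in all. It held no entry for Foxj1, Lrrc6, Rsph1, Rsph4a and Tppp3. The letters GTTGCC, an RFX half-site, occurred on either strand in 15 of the 35 promoters (42.9%) and in 12.5% of all promoters. A longer X-box form, GTNNCC followed by any 3 letters and GNAAC, occurred in 8 of the 35 (22.9%) and in 2.17% of all, and overlapped a half-site in 6 of those 8 and in 282 of 714 promoters overall. The forkhead motif TGTTTAC occurred in 2 of the 35 (5.71%), those of Tekt3 and Ak7, and in 3.65% of all promoters. The forkhead motif TGTTTGT occurred in none of the 35 and in 6.61% of all. On the given strand alone the shares were 28.6% against 6.66% for GTTGCC and 11.4% against 1.32% for the X-box. A match describes letters in this window and is not evidence of binding. The 6 upstream stretches of 250 bases below belong to genes with a motif in this stretch. Each is written 5′ to 3′ on the strand of its gene, with both forms of the RFX motif in capitals where they lie wholly inside it. An X-box of Enkur runs past the end of its stretch and stays in lower case. Tekt1 and Pifo each have another promoter, not shown, with neither form.
Ccno (chr13:112987552-112987801, plus strand): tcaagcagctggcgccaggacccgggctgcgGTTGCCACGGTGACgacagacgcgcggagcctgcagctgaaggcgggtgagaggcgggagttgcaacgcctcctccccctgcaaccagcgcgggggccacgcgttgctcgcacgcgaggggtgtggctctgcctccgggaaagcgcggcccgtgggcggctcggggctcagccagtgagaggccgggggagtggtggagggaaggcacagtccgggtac
Tekt1 (chr11:72361883-72362132, minus strand): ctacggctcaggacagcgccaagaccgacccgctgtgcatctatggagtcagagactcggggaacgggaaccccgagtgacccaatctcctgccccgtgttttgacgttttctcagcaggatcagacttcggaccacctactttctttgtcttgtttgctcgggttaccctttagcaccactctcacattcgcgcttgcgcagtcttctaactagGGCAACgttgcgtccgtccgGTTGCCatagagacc
Dynlrb2 (chr8:116504765-116505014, plus strand): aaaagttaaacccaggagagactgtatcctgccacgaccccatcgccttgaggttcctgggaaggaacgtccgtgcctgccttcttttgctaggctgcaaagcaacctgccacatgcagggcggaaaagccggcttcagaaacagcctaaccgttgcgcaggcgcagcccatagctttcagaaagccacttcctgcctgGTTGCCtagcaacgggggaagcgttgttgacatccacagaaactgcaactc
Spag16 (chr1:69826720-69826969, plus strand): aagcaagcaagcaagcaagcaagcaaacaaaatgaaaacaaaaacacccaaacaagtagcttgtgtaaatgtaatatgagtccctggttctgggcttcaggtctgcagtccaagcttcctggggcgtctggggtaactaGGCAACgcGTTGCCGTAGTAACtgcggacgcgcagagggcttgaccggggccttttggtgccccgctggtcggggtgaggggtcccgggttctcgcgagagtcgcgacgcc
Pifo (chr3:106001498-106001747, minus strand): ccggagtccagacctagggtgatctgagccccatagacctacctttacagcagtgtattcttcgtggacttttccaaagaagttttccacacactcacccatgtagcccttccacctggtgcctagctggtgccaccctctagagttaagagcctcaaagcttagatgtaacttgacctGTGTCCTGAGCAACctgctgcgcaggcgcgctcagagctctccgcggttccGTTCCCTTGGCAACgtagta
Enkur (chr2:21205366-21205615, minus strand): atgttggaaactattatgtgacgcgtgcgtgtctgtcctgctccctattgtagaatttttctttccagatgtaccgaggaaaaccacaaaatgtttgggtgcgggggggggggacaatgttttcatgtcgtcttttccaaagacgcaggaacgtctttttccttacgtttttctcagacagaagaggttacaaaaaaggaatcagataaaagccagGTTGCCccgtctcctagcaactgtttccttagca

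**Figure D2:**
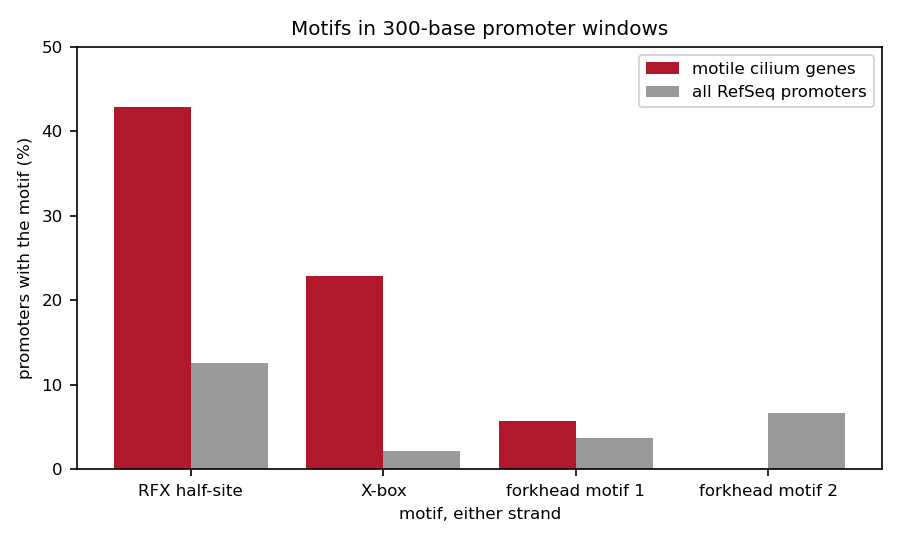
Percent of promoters (vertical axis) that hold each motif on either strand, for the 35 promoters of the cilium genes (red) and for all 32851 RefSeq promoters (grey). Forkhead motif 1 is TGTTTAC and forkhead motif 2 is TGTTTGT. The RFX half-site stands at 42.9% against 12.5% and the X-box at 22.9% against 2.17%.

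Of the tektins, filament proteins that stabilize the microtubule doublets, Tekt1 and Tekt4 followed Foxj1, and Tekt2 declined on its own course. Tekt1, shown above with 2 half-sites, measured 2.39, 2.03 and 4.19 at E11.5 and 2.79, 4.34 and 3.96 at E15.5. At P0 it measured 2.72, 3.40 and 2.94, and at P7 1.09, 0.43 and 1.33. Every P7 array lay below every earlier array. Tekt4 measured -0.33, -0.23 and 2.55 at E11.5, -0.02, 2.84 and 2.20 at E15.5, 1.33, 1.64 and 1.44 at P0 and 0.18, 0.35 and 0.16 at P7. Tekt2 measured 3.06, 2.55 and 2.79 at E11.5, 3.43, 3.18 and 2.67 at E15.5, 1.45, 1.78 and 1.78 at P0 and 1.15, 1.12 and 0.87 at P7. Its E11.5 and E15.5 groups overlapped and all 6 embryonic arrays lay above all later ones, with no mark of the split seen in Krt4. Tekt3 was well above background on none of the 27 arrays.

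The axonemal dynein chains, the motor subunits of the arms, held 8 genes. Dnali1, a light intermediate chain of the inner arm, measured -0.04, 0.60 and 3.99 at E11.5 and 0.23, 4.09 and 3.52 at E15.5. At P0 it measured 2.75, 3.10 and 3.23, and it was not well above background on the P7 arrays. Dnaic1, an intermediate chain of the outer arm, instead climbed with age. It measured 0.31, 0.26 and 0.68 at E11.5, 0.40, 0.93 and 0.62 at E15.5, 0.62, 0.84 and 0.82 at P0 and 1.06, 1.11 and 1.14 at P7. Neighbouring embryonic and P0 groups overlapped, and the P7 arrays lay above all of them. The heavy chains Dnah2, Dnah5, Dnah9 and Dnah11 measured between 0.54 and 1.37 at P0 and between -0.30 and 0.20 at P7. Dnah1 was nearly level, between -0.07 and 0.35 on the 12 arrays, and Dnaic2 was well above background on 1 of the 27 arrays. Dynlrb2, a light chain of the cytoplasmic dynein family that also serves transport in cilia, had the largest fall from P0 to P7 of the tested cilium genes. It measured 0.16, 0.05 and 4.98 at E11.5, 0.12, 5.04 and 4.76 at E15.5, 3.65, 4.36 and 4.01 at P0 and 0.06, 0.35 and 0.18 at P7. No P0 array came near a P7 array.

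The assembly factors Zmynd10 and Lrrc6, which help to build dynein arms in the cytoplasm, were lower at P0 than on the high embryonic arrays. Zmynd10 measured -0.61, -0.14 and 3.06 at E11.5, -0.33, 3.29 and 2.78 at E15.5, 0.55, 0.82 and 0.82 at P0 and -0.71, -0.70 and -1.04 at P7. Lrrc6 measured 0.16, -0.25 and 1.42 at E11.5, 0.02, 1.52 and 1.42 at E15.5 and -0.07, 0.16 and 0.37 at P0, and it was not well above background at P7.

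Radial spoke genes split in the same way. Rsph1, a spoke head protein, measured -0.14, -0.46 and 2.98 at E11.5, -0.59, 3.17 and 2.76 at E15.5, 1.12, 1.71 and 1.42 at P0 and -0.11, -0.36 and 0.05 at P7. Rsph9, also of the spoke, measured 0.48, 0.55 and 1.57 at E11.5, 1.10, 2.09 and 2.03 at E15.5, 0.86, 0.93 and 1.27 at P0 and 1.29, 0.83 and 0.59 at P7. Rsph1 separated P0 from P7 without overlap and Rsph9 did not. Rsph4a, another spoke head protein, ranged from 0.71 to 1.04 at P0. At P7 it ranged from -0.11 to 0.05 and was not well above background.

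Among the genes of the molecular ruler and the central pair, Ccdc40, which with Ccdc39 spaces the arms along the axoneme, measured 0.85, 0.41 and 1.39 at E11.5 and 0.90, 2.01 and 1.39 at E15.5. At P0 it measured 0.47, 1.24 and 0.83, and at P7 -0.42, -0.22 and -0.30. Spag6, a central pair protein, measured 0.09, 0.20 and 1.91, then -0.12, 2.12 and 1.74, then 0.67, 0.92 and 0.80, then 0.12, 0.00 and 0.28 at the 4 ages. In both genes all P7 arrays lay below all P0 arrays, and Spag6 was not well above background at P7. The central pair genes Hydin, Spag16 and Spag17 and the ruler gene Ccdc39 lay between 0.28 and 0.95 at P0 and between -0.20 and 0.33 at P7. The ciliary adenylate kinase Ak7 measured -0.06, 0.16 and 1.62 at E11.5, 0.04, 1.85 and 1.53 at E15.5, 1.21, 1.61 and 1.46 at P0 and -0.06, 0.05 and -0.19 at P7. Ak8, a second ciliary adenylate kinase, measured -0.27, -0.35 and 1.51, then -0.55, 2.20 and 1.33, then 0.70, 1.32 and 1.21, then -0.81, -0.31 and -0.51. Both kinases showed the same low and high embryonic arrays and separated P0 from P7.

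The remaining genes had unlike courses after birth. Tppp3, which binds and bundles microtubules, measured 1.58, 0.40 and 3.72 at E11.5, 0.88, 3.76 and 3.78 at E15.5, 4.65, 4.60 and 4.51 at P0 and 5.06, 4.90 and 4.77 at P7. It stayed at 4.54 or above on every later array of any genotype. Enkur, a microtubule-associated adaptor known from sperm and cilia, measured -1.17, -0.74 and 2.57 at E11.5, -1.09, 2.88 and 2.37 at E15.5, 1.42, 2.00 and 1.73 at P0 and 1.11, 0.52 and 1.71 at P7, where it overlapped P0. Meig1, known from spermatogenesis, measured -0.15, -0.36 and 4.54 at E11.5, -0.49, 5.10 and 4.67 at E15.5 and 1.20, 1.47 and 1.75 at P0. Meig1 was not well above background at P7. Pifo, which acts at the base of cilia, measured 3.00, 3.36 and 2.83 on the 3 high embryonic arrays, 1.43, 2.25 and 1.66 at P0 and at most 0.33 at P7.

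**Figure D3:**
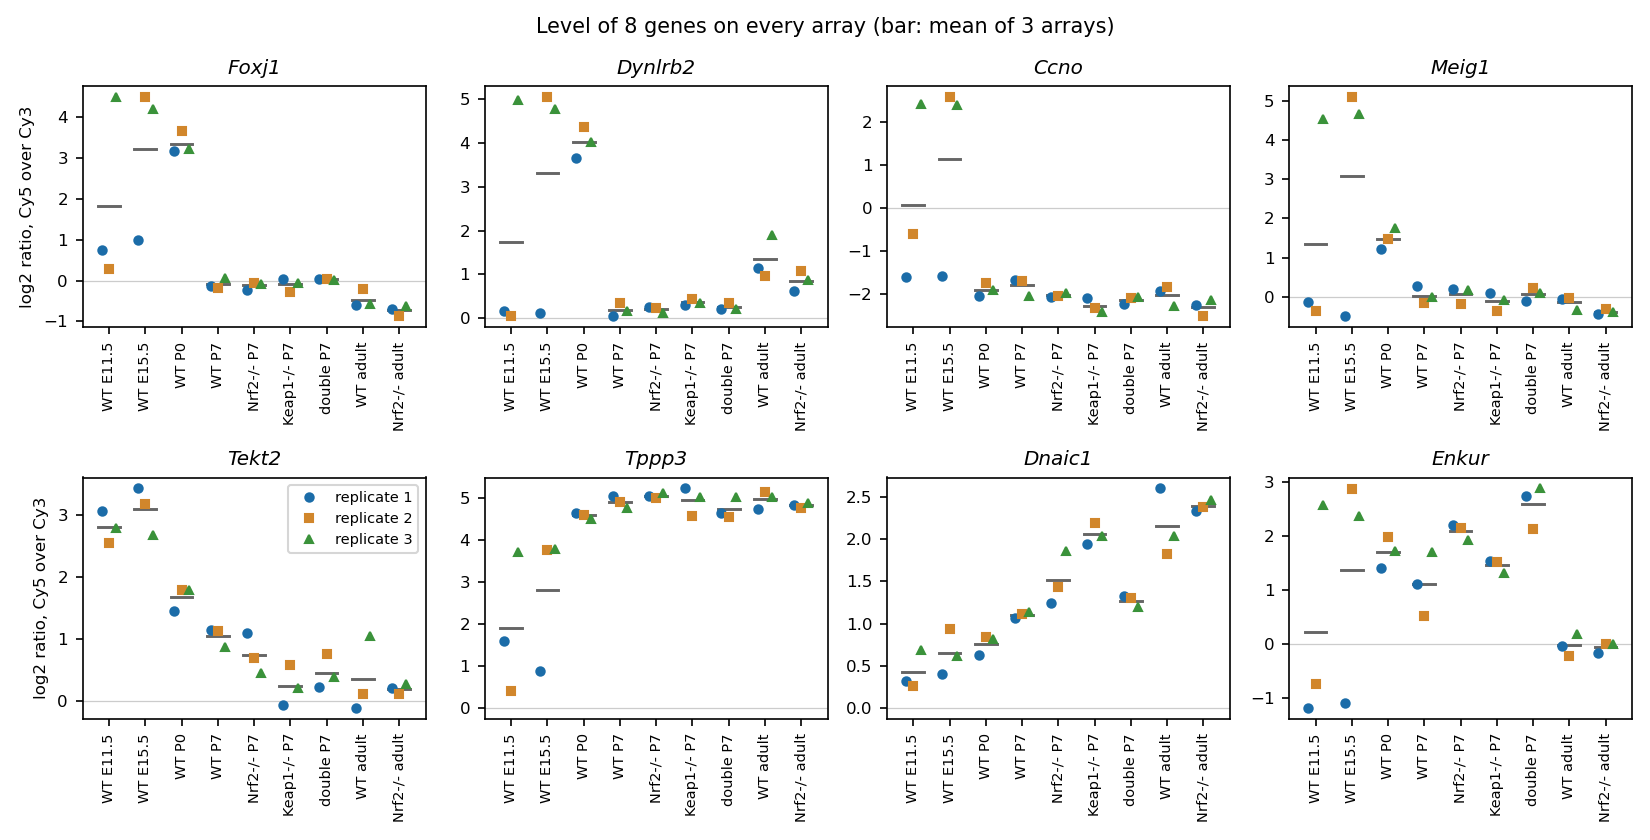
Log2 ratio of Cy5 over Cy3 (vertical axis) of 8 cilium genes in the 9 groups (horizontal axis; double stands for Nrf2-/-Keap1-/-), with 1 point per array and a bar at the mean of 3 arrays. Foxj1, Dynlrb2, Ccno and Meig1 split the embryonic arrays, while Tekt2 declines, Dnaic1 climbs and Tppp3 stays between 4.51 and 5.23 from P0 on.

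The first comparison asked which genes changed from E11.5 to E15.5. With all arrays, limma called 0 of the 32 testable genes at an adjusted p of 0.05 or less, as it called 0 of all 19121 genes (0%). The remaining genes, Tekt3 and Dnaic2, were too dim to test. At an unadjusted p of 0.05 or less, 1 of the 32 genes and 307 of all genes passed. All 32 genes had a positive difference, with a median of 0.56 against -0.01 for all genes, and the lowest adjusted p was 0.997. Within the slide shared by the 3 E11.5 arrays and E15.5 replicate 1, 5 of the 34 genes differed upwards and 29 downwards. The median was -0.45, and both arrays that went against their labels enter this difference. A slide block estimates this step from the same arrays. With slide as a fixed block the median was -0.51 and 0 genes were called.

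Without the 2 arrays that went against their labels, 27 of the 32 genes were called higher at E15.5 and none lower, where 9% of all genes were called higher. Without a filter on dim probes it was 27 of all 34, against 6.15% of all genes. Meig1 differed by 5.14 ± 0.22 (SE, adjusted p = 4.7e-06), Dynlrb2 by 4.79 ± 0.22 (adjusted p = 5.2e-06) and Foxj1 by 3.83 ± 0.21 (adjusted p = 1.4e-05). Ccno differed by 3.59 ± 0.28 (adjusted p = 6.8e-05) and Zmynd10 by 3.41 ± 0.22 (adjusted p = 2.7e-05). Rfx2, Rfx3, Dnah1, Tekt2 and Hydin were not called. Genes well above background at E11.5 only on replicate 3 included Meig1, Pifo, Lrrc6, Rsph4a, Ccdc39, Spag6 and Spag16. Without that array the E11.5 levels of these genes, and so their differences, are known only as bounds. With the 2 arrays left out, E11.5 and E15.5 held 2 arrays each and lay on separate slides, so slide and age cannot be told apart.

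From E15.5 to P0, 1 gene was called lower with all arrays, where 8.54% of all genes were. Tekt2 fell by 1.42 ± 0.20 (SE, adjusted p = 0.0012), and its groups did not overlap. Without the 2 arrays, 17 of 32 genes were called lower and none higher, where 8.98% of all genes were called lower, and it was 16 of 34 against 5.89% without the filter. Ccno differed by -4.39 ± 0.26 (adjusted p = 1.3e-05), Meig1 by -3.41 ± 0.20 (adjusted p = 1.5e-05) and Zmynd10 by -2.31 ± 0.20 (adjusted p = 0.00012). Dynlrb2 differed by -0.89 ± 0.20 (adjusted p = 0.013). Genes not called included Dnah2, Dnah5, Dnah9, Dnah11, Dnali1, Ak7 and Ak8. The same E15.5 arrays entered this step and the one before it. No slide held both E15.5 and P0 arrays, so slide and age cannot be told apart.

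From P0 to P7 the cilium genes were lower almost throughout. In the 12-array fit limma called 0 of 32 genes at an adjusted p of 0.05 or less, where 2.4% of all genes were called, and 15 genes passed at an unadjusted p of 0.05 or less. In 22 genes every P7 array lay below every P0 array, against 13.6% of all genes, and in Dnaic1 and Tppp3 every P7 array lay above, against 14.5% of all genes. The median difference was -0.72 against 0.01 for all genes. This fit shares 1 spread among 4 ages, and the split embryonic arrays enter it: the SE of Foxj1 was 1.08 there and 0.15 in a fit of the P0 and P7 arrays alone.

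With the P0 and P7 arrays alone, 20 of the 30 testable genes were called lower and none higher, where 2.95% of all genes were called lower and 2.92% higher. Without the filter it was 20 of all 34 genes, against 1.93% of all genes lower. Among the called genes, Dnali1, Pifo, Meig1, Dnah11, Rsph4a, Spag6 and Spag16 passed the filter only through the P0 arrays, where they were high. The filter thus favoured a fall for these genes, and their calls are no independent support. Dynlrb2 fell by 3.81 ± 0.19 (SE, adjusted p = 0.00027), Foxj1 fell by 3.43 ± 0.15 (adjusted p = 0.0002) and Dnali1 fell by 3.02 ± 0.17 (adjusted p = 0.00036). Tekt1 fell by 2.07 ± 0.26 (adjusted p = 0.0079), Ak8 by 1.62 ± 0.20 (adjusted p = 0.0070) and Zmynd10 by 1.55 ± 0.14 (adjusted p = 0.0019). The smallest called change of a gene mean was that of Dnah9, which fell by 0.61 ± 0.11 (adjusted p = 0.026). Its 4 probes differed by -2.34 to 0.04, and 2 of them were well above background, so this mean understates the brighter probes. Rfx2, Rfx3, Ccno, Dnah1, Dnaic1, Rsph9, Ccdc39, Hydin, Tppp3 and Enkur were tested and not called. Leaving out 1 P0 array left 6 (replicate 3) or 10 (replicates 1 and 2) called of 21 testable genes, and leaving out 1 P7 array left 15 to 20 called of 30. With 1 P0 array left out, genes well above background on the P0 arrays alone no longer passed the filter. The P0 and P7 arrays lay on separate slides, so slide and age cannot be told apart. With slide as a random block 22 cilium genes were called lower and 2 higher, but 4456 of all 17936 genes were then called, against 1053 without it.

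Dnali1, Pifo, Meig1, Dnah11, Rsph4a, Spag6, Spag16, Ccdc39 and Dnah1 were well above background on all 3 P0 arrays and on none at P7. Lrrc6 and Spag17 were so on 2 P0 arrays and on none at P7. The P7 levels of all these genes are known only as bounds. Probes of a gene did not always move together. The 3 probes of Ak7 differed by -3.94 to 0.15 from P0 to P7, the 5 of Dnah2 by -3.63 to 0.15 and the 3 of Dnah5 by -2.62 to 0.04, and in each gene 2 probes were well above background.

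**Figure D4:**
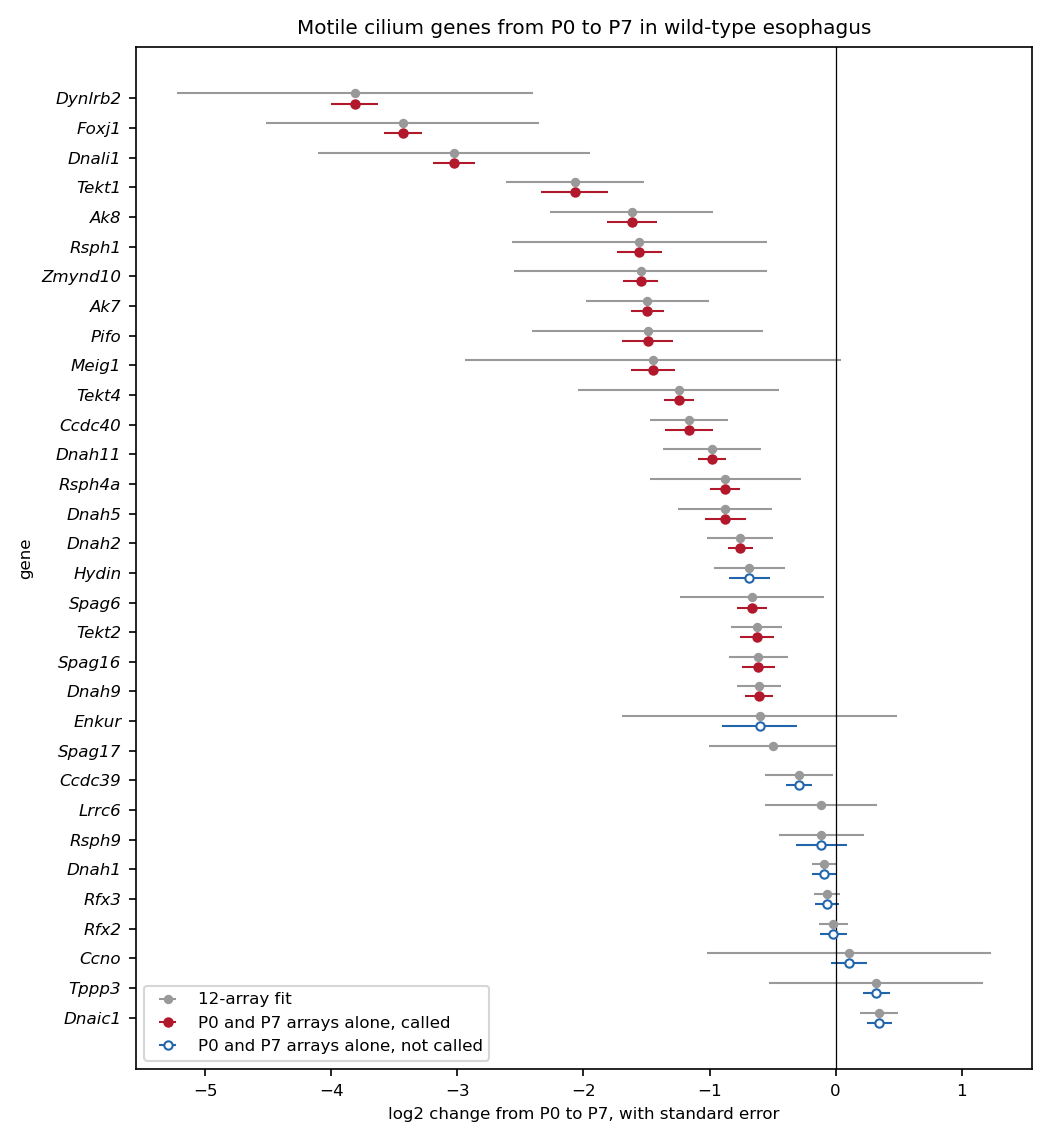
Log2 change from P0 to P7 (horizontal axis, with standard error) of the cilium genes (vertical axis) in the fit of 12 wild-type arrays (grey) and in the fit of the P0 and P7 arrays alone (filled red where called, open blue where not). The 20 red points all lie below 0, and the largest changes are those of Dynlrb2, Foxj1 and Dnali1.

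Other markers moved over the same step. Of 7 tested markers of airway secretory cells, Scgb3a1 and Reg3g were called lower at P7 with the P0 and P7 arrays alone, and of 5 tested markers of lung and trachea Sftpd was. Of 6 columnar epithelium markers Krt19 and Epcam were called lower, by -0.99 ± 0.11 (SE, adjusted p = 0.0046) and -0.73 ± 0.12 (adjusted p = 0.017), and of 2 tested thyroid markers Tg was, by -0.99 ± 0.11 (adjusted p = 0.0045). Among all genes 2.95% were called lower and 2.92% higher. Differences were positive, though not called, for 2 airway, 2 lung, 1 columnar and 1 thyroid marker. Of 4 tested cartilage markers 1, Col11a2, was called higher, by 0.55 ± 0.11 (adjusted p = 0.038). Scgb3a1, a secretoglobin, measured 1.99, 4.23 and 4.41 at P0 and 0.08, -0.01 and 0.39 at P7. Sftpd, a surfactant protein, measured 3.62, 3.93 and 4.16 at P0 and 2.06, 0.57 and -0.24 at P7. The 8 airway markers summed to Cy5 intensities of 312354 to 374972 at P0 and 311791 to 491131 at P7, and the 8 lung markers to 2032 to 25848 at P0 and 949 to 5411 at P7. Nkx2-1, the factor that defines lung and thyroid, was well above background on 1 of the 27 arrays. Their part in the fall of the cilium genes was not tested.

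From E11.5 to P7, 5 genes were called with all arrays, 3 lower and 2 higher, where 30.4% of all genes were called. Tekt1 fell by 1.92 ± 0.55 (SE, adjusted p = 0.023), Tekt2 fell by 1.76 ± 0.20 (adjusted p = 0.00023) and Ccdc40 fell by 1.20 ± 0.31 (adjusted p = 0.016). Dnaic1 rose by 0.69 ± 0.15 (adjusted p = 0.0078) and Tppp3 rose by 3.01 ± 0.85 (adjusted p = 0.022). Without the 2 arrays 7 genes were called, 3 higher and 4 lower, where 40.8% of all genes were. A test of any difference among the 4 ages called the same 5 genes, and 29 of 32 without the 2 arrays, where 30.4% and 45.9% of all genes were called. These shares lie below and above the background respectively. No slide held both E11.5 and P7 arrays, so slide and age cannot be told apart here either.

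The other genes of the pathway were read from lists. Of 13 genes of multiciliated cell specification on the array, Ccna1, a cyclin, measured 1.12, 0.82 and 3.75 at E11.5, 0.72, 4.07 and 3.39 at E15.5 and 0.76, 0.45 and 0.49 at P0. Deup1, which builds the organelle that makes new centrioles, measured 1.91, 2.09 and 1.95 on the same 3 high embryonic arrays and -0.36, 0.15 and 0.06 at P0. Both were high where Ccno was high and low at P0. Trp73, a p53-family factor of multiciliated cells, instead measured 2.34, 2.82 and 2.34 at P0 and 1.90, 2.44 and 2.21 at P7. Foxn4 was well above background on none of the 27 arrays.

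With the P0 and P7 arrays alone, 10 of 23 tested further axoneme genes were called lower and none higher, where 2.95% of all genes were called lower and 2.92% higher. Drc1, of the dynein regulatory complex, fell by 2.48 ± 0.19 (SE, adjusted p = 0.0013), Iqcg, of the same complex, fell by 2.45 ± 0.16 (adjusted p = 0.00076) and Ccdc113 fell by 2.28 ± 0.22 (adjusted p = 0.0025). In the 12-array fit Iqcg alone of 24 was called (adjusted p = 0.0042). Of 24 genes of intraflagellar transport and the Bardet-Biedl complex, which nearly all ciliated cells use, 0 were called lower and 1, Ift27, was called higher by 0.56 ± 0.10 (adjusted p = 0.027). Of 11 tested specification genes 0 were called. The shares of all genes given for the axoneme list hold for these lists too. The median difference from P0 to P7 was -0.82 for the 30 cilium genes, -0.46 for the axoneme list, -0.03 for the transport list, 0.02 for the specification list and 0.02 for all genes.

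From E15.5 to P0 with all arrays, the transport list had 8 of 24 genes called lower, among them Ift74 (-1.11 ± 0.13, adjusted p = 0.00033), Ift122 (-0.73 ± 0.16, adjusted p = 0.010), Kifap3 (-0.64 ± 0.17, adjusted p = 0.024) and Ift81 (-0.58 ± 0.11, adjusted p = 0.0058). Of 24 axoneme genes Mns1 (-1.39 ± 0.24, adjusted p = 0.0035) and Dnaaf2 (-0.94 ± 0.11, adjusted p = 0.00045) were called lower. Of 12 specification genes Plk4 and Cep152, which act in centriole duplication, were called lower, by -0.59 and -0.53. These counts, 8 of 24, 2 of 24 and 2 of 12, stand beside 8.54% of all genes called lower. Without the 2 arrays that went against their labels, 12 of 24 transport genes, 15 of 24 axoneme genes and 5 of 12 specification genes were called lower, beside 8.98% of all genes, with median differences of -0.39, -0.80 and -0.31. No gene of the 3 lists was called higher in this step, with or without the 2 arrays.

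**Figure D5:**
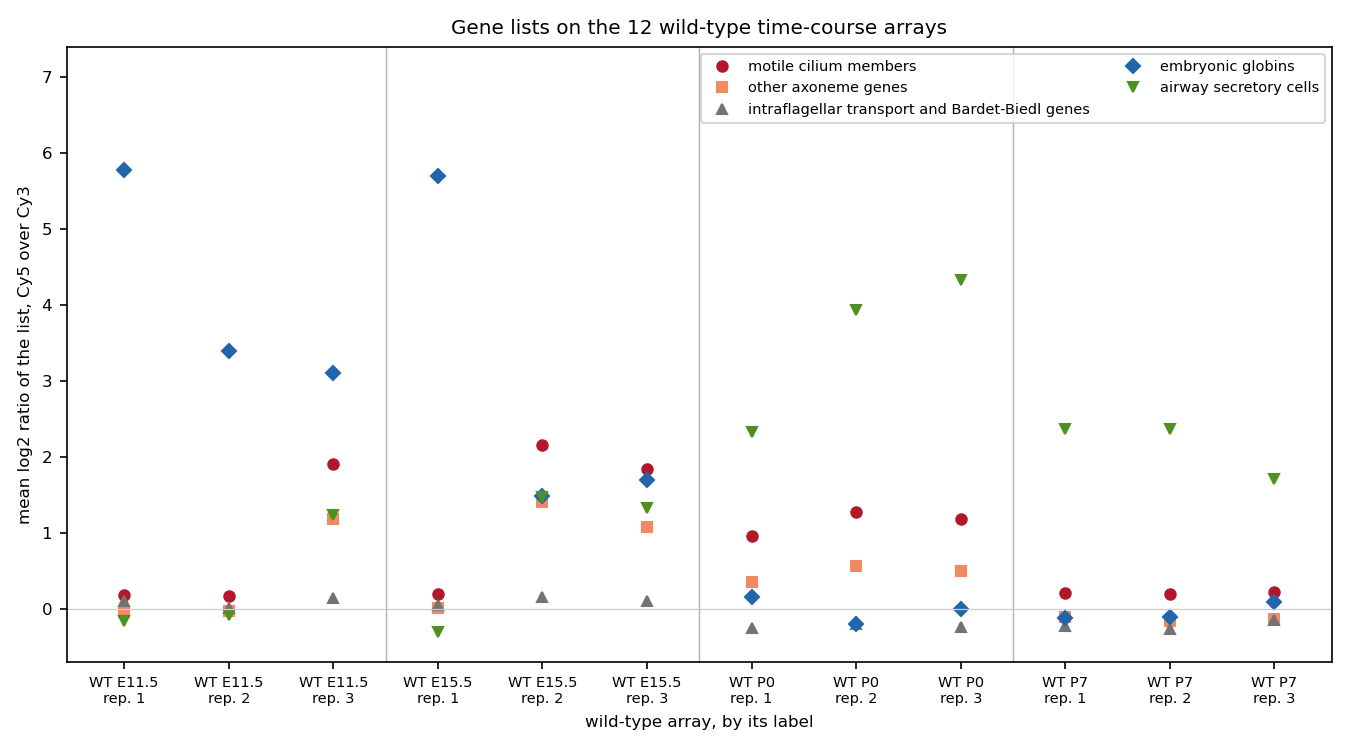
Mean log2 ratio of Cy5 over Cy3 (vertical axis) of 5 gene lists on each of the 12 wild-type time-course arrays (horizontal axis, by label). The cilium genes and the further axoneme genes are high on E11.5 replicate 3 and E15.5 replicates 2 and 3, the embryonic globins are highest on E11.5 replicate 1 and E15.5 replicate 1, and the transport genes stay near 0.

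At P7, loss of Nrf2 or Keap1 was compared with the wild type in a fit of 12 arrays in which 22 cilium genes could be tested. No mutant array shared a slide with a wild-type P7 array, so slide and genotype cannot be told apart. Nrf2 is a transcription factor of antioxidant defence, and Keap1 marks it for breakdown. In Nrf2-/- esophagus limma called 0 of 22 genes at an adjusted p of 0.05 or less, where 0.0162% of all genes were called, and 2 genes, Dnaic1 and Enkur, passed at an unadjusted p of 0.05 or less. Enkur measured 2.20, 2.16 and 1.93 there, above the wild-type arrays.

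In Keap1-/- esophagus 5 of the 22 genes were called, where 33.6% of all genes were. Dnaic1 measured 1.95, 2.20 and 2.04, all above the wild type, and rose by 0.96 ± 0.14 (SE, adjusted p = 0.00055). Tekt4 measured 0.49, 0.67 and 0.40 and rose by 0.29 ± 0.10 (adjusted p = 0.044). Tekt2 measured -0.06, 0.57 and 0.20, all below the wild type, and fell by 0.81 ± 0.21 (adjusted p = 0.012). Ccno measured -2.10, -2.32 and -2.42 and fell by 0.49 ± 0.12 (adjusted p = 0.0099), and Rsph9 measured 0.21, 0.50 and 0.29 and fell by 0.57 ± 0.20 (adjusted p = 0.045). Foxj1 stayed between -0.28 and 0.05, and 1 of its 3 arrays was well above background. The Keap1-/- arrays were alone on their slide and in their scan, so genotype and scan cannot be told apart. Krt7, a keratin of simple epithelium, measured -0.81, -1.03 and -1.08 on these arrays and 3.76, 4.39 and 3.69 in the wild type. The 6 columnar epithelium markers summed to Cy5 intensities of 52204 to 55179 in Keap1-/- and 240096 to 342341 in wild-type esophagus, and their part in these differences was not tested.

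In Nrf2-/-Keap1-/- esophagus 1 of the 22 genes was called, where 0.475% of all genes were. Enkur measured 2.76, 2.13 and 2.89 and stood 1.48 ± 0.27 above the wild type (SE, adjusted p = 0.048). Enkur was not called without replicate 1 or 3 of the double mutant or without wild-type replicate 1 or 2, nor under most other settings. The effect of Keap1 loss was then compared between mice with and without Nrf2, and 1 gene of 22 differed, where 15.1% of all genes did. For Dnaic1, which measured 1.24, 1.44 and 1.86 in Nrf2-/- and 1.32, 1.30 and 1.19 in Nrf2-/-Keap1-/- esophagus, the effect of Keap1 loss was lower by 1.20 ± 0.20 without Nrf2 (adjusted p = 0.0029).

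Among the pathway lists in Keap1-/- esophagus, 2 axoneme genes were called higher and 4 lower of 20, where 33.6% of all genes were called. Tekt5, a tektin, rose by 2.61 ± 0.37 (SE, adjusted p = 0.00049) and Drc1 rose by 1.79 ± 0.31 (adjusted p = 0.0016), while Mns1 fell by 1.02 ± 0.23 (adjusted p = 0.0065). Tekt5 measured 1.85, 3.37 and 3.71 on the Keap1-/- arrays and at most 0.77 on every other array. Of 24 transport genes 10 were called lower and 0 higher, beside the same 33.6% of all genes called, led by Ift74, which fell by 1.30 ± 0.14 (adjusted p = 8.9e-05). Genotype and scan cannot be told apart for these genes either. In Nrf2-/- and Nrf2-/-Keap1-/- esophagus 0 genes of the 3 lists were called. The effect of Keap1 loss differed with Nrf2 for Tekt5 (-2.52 ± 0.53, adjusted p = 0.010), Drc1 (-1.72 ± 0.44, adjusted p = 0.025) and Ift74 (1.20 ± 0.20, adjusted p = 0.0033), among others. These genes stand beside 15.1% of all genes for which this effect differed, and they are named as examples only.

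From P7 whole esophagus to adult epithelium, age, tissue and slide change together and cannot be told apart. Of 16 testable cilium genes 4 were called, where 43% of all genes were. Dynlrb2 measured 1.16, 0.98 and 1.89 in adult epithelium and rose by 1.15 ± 0.24 (SE, adjusted p = 0.0074), and Dnaic1 measured 2.61, 1.82 and 2.04 and rose by 1.05 ± 0.20 (adjusted p = 0.0051). Neither gene's adult arrays overlapped P7. Tekt1 measured 0.08, -0.12 and 0.45 and fell by 0.81 ± 0.25 (adjusted p = 0.036), with groups that overlapped, and Enkur measured -0.03, -0.22 and 0.20 and fell by 1.13 ± 0.29 (adjusted p = 0.016). Foxj1, Dnali1, Rsph1 and Meig1 were well above background on none of the adult wild-type arrays. Leaving out adult replicate 1 or 2 left 2 genes called. Of 20 further axoneme genes 5 were called higher and 3 lower, beside the 43% of all genes. Kif9, a kinesin, rose by 2.40 ± 0.20 (adjusted p = 0.00015) and Ccdc113 rose by 1.84 ± 0.28 (adjusted p = 0.0019), while Mns1 fell by 1.48 ± 0.15 (adjusted p = 0.00029). The 7 muscle markers summed to Cy5 intensities of 192429 to 604085 in the P7 and 26451 to 34678 in the adult samples.

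In adult epithelium Nrf2-/- and wild type were compared for 19 testable genes. Limma called 0 of them at an adjusted p of 0.05 or less, where 0.462% of all genes were called, and 0 passed at an unadjusted p of 0.05 or less. Dynlrb2 measured 0.62, 1.08 and 0.87 in Nrf2-/- epithelium and overlapped the wild type, and Dnaic1 measured 2.34, 2.39 and 2.47 and overlapped it too. No adult Nrf2-/- array shared a slide with an adult wild-type array, so slide and genotype cannot be told apart. Adult wild-type replicates 1 and 2 were also scanned apart from every adult Nrf2-/- array. The effect of Nrf2 loss was compared between adult and P7 for 25 genes. Of these 0 were called, where 0.0903% of all genes were, and Pifo and Enkur passed at an unadjusted p of 0.05 or less.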

How the data were processed

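RNA of 27 esophageal samples was amplified, labelled with Cy5 and hybridised by the authors against Cy3-labelled reference RNA on 2-colour Agilent arrays, without dye swaps. The deposited scanner files hold spot intensities of both dyes. The labels name Agilent Feature Extraction 9.1, while the file headers give later versions. A deposited series table holds log10 ratios, equal to the log ratios of the scanner files, and was used as an alternative, converted to log2 ratios.

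From the mean and local background intensities, normexp (offset 50) and loess within each array were run in limma 3.58.1 under R 4.3.3. Local background over 5 times the array median was replaced by it and the spot left out (43 spots, 0 of them of the cilium genes). Control spots had weight 0 in loess. Outlier-marked spots were kept (31 of 1620 spot values of the cilium genes). Spots were averaged to probes and probes to genes. Probe names were updated through RefSeq accessions. Per-sample columns left unused numbered 0.

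A gene was tested when a probe was well above Cy5 background on at least 3 arrays of the fit and each group had at least 2 values. The 12 wild-type whole-esophagus arrays, the 12 P7 arrays and the adult comparisons were fitted with lmFit and eBayes, and p-values were adjusted after Benjamini and Hochberg over all genes tested, with calls at 0.05 or less. Errors are SE. P-values rest on the spread between samples within groups, pooled over the groups of a fit and moderated across genes. Groups held 3 samples, or 2 where an array was left out. On simulated data the P0 to P7 test on 19121 genes recovered 63% of 100 genes changed by 1 log2 unit. Of 100 genes changed by 2 it recovered 89%. The changed genes were drawn at random from the testable genes, so these shares need not hold for the cilium genes.

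The genes, lists and alternatives were chosen with earlier results of these data known, and 8 of the 34 genes are on lists that the study chose on these samples. The fit of the P0 and P7 arrays alone is such an alternative. Values on every array are given for Foxj1, Rfx2, Rfx3 and Ccno, for the 2 brightest genes of each other role over the 12 wild-type arrays, and for genes called in a step. Other genes named were chosen after their values were seen. Same-numbered samples were checked for pairing: in 3 of 20 pairs of groups, P0 with P7 and E11.5 with P7 among them, every correlation of deviations was over 0.1, and the labels name no shared litter or day. Alternatives covered background, normalization, filter, probe choice, arrays in the fit, slide, scan, software version, replicate block and each array left out. Figures were drawn with matplotlib.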

Additional observations from a re-analysis of the deposited data

Results flagged for a closer look

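The effect of Keap1 loss on Dnaic1, an outer arm dynein chain, differed with the Nrf2 genotype at P7. Dnaic1 measured 1.06, 1.11 and 1.14 in wild-type and 1.95, 2.20 and 2.04 in Keap1-/- esophagus, against 1.24, 1.44 and 1.86 in Nrf2-/- and 1.32, 1.30 and 1.19 in Nrf2-/-Keap1-/- esophagus. The difference between the 2 effects was -1.20 ± 0.20 on the log2 scale (limma, adjusted p = 0.0029). The Keap1-/- arrays were alone on their slide and in their scan, so that genotype and scan cannot be told apart.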

How the results depend on the processing

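None of the cilium genes called from E15.5 to P0 or from E11.5 to P7 with all arrays changed direction under any alternative run. The median difference of the cilium genes from E11.5 to E15.5, which was not called, turned from 0.56 to -0.51 with slide as a fixed block. Counts of called genes moved as follows. For any difference among the 4 ages the count of 5 became 8 with the deposited ratios, 3 with median centring, 1 with each spot's own local background, 8 with the brightest probe, 3 with slide as a random block and 29 without the 2 arrays that went against their labels. Leaving out 1 array gave 2 to 20, with 13 without E11.5 replicate 3, 20 without E15.5 replicate 1 and 2 without P7 replicate 2. From E11.5 to E15.5 the count of 0 became 27 without the 2 arrays and stayed at 0 with any 1 array left out. From E15.5 to P0 the count of 1 became 0 with each spot's own background, 2 with the brightest probe, 4 with all 27 arrays in 1 fit, 17 without the 2 arrays and 1 to 4 with 1 array left out (4 without E15.5 replicate 1). From P0 to P7 the count of 0 became 2 with processed signals, deposited ratios or the brightest probe, 9 with all 27 arrays, and 20 with only the P0 and P7 arrays or without the 2 arrays. With the P0 and P7 arrays alone the count of 20 became 6 to 20 with 1 array left out. From E11.5 to P7 the count of 5 became 8 with processed signals or deposited ratios, 3 with each spot's own background and 3 to 5 with 1 array left out (3 without P7 replicate 1 or 2). In Keap1-/- esophagus the count of 5 became 8 with median centring, 2 with all 27 arrays, 3 with only the 2 groups and 3 to 5 with 1 array left out (3 without wild-type replicate 1 or Keap1-/- replicate 1 or 2). In Nrf2-/-Keap1-/- esophagus the count of 1 became 0 with processed signals, deposited ratios, no background correction, median centring, scale normalization, no filter, a filter on both channels, all 27 arrays, only the 2 groups or the replicate block, and 0 to 1 with 1 array left out. For the interaction the count of 1 became 2 with median centring. From P7 to adult the count of 4 became 1 with median centring and 2 to 5 with 1 array left out (2 without adult replicate 1 or 2). In the Nrf2-/- adult comparison and for the Nrf2 effect by age the counts of 0 became 1 with each spot's own background. The cause of these moves was not tested.

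The replicate block left the pairing of P0 with P7 at 0 called genes, or 20 with these arrays alone, and changed a call only in the P7 genotypes, where the Keap1-/- count became 4 and the Nrf2-/-Keap1-/- count 0. Scan and software version could not be fitted as a block in the time course, the Keap1-/- comparison or the interaction. Levels not well above background limit the P7 and adult values of most cilium genes.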
